A study of Homo sapiens with 9 samples.

Results

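Accessible chromatin in T47D cells that carried a short hairpin RNA against ZHX2 and were kept in hypoxia (shZHX2 Hypoxia) was compared with that of T47D cells with a control hairpin in normoxia (shCtrl Normoxia). T47D is an established human breast tumour line of luminal type. The 2 groups had 3 samples each, 6 of the 9 samples of the series, and each group is represented by 1 deposited list of called regions. All regions on chromosomes 1 to 22 and X were used, 90885 in normoxia and 62727 with shZHX2 in hypoxia. Merged, they made 93575 of the 97720 regions called anywhere in the series. Both groups had been infected with lentivirus and selected with hygromycin or puromycin, and hypoxia was applied in a hypoxia workstation. Oxygen level, exposure time and hairpin sequences are not given in the sources used here.

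The comparison changes oxygen and hairpin together. A shZHX2 group in normoxia is not among the samples, so the effect of the hairpin alone in normoxia is not analysed here. The remaining group, shCtrl in hypoxia (77383 regions), served as the intermediate point: it shows whether a region was already absent, or already shifted, in hypoxia with the control hairpin. No list has a replicate, so the spread between cultures is unknown and no p-value is given. The 95% Wilson intervals cover counting error over regions only.

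ATAC-seq marks open DNA because a transposase inserts adapters where nucleosomes do not block it, and promoters and enhancers stand out as regions of enriched insertions. Low oxygen stops the prolyl hydroxylases that mark HIF proteins for destruction through VHL, so HIF accumulates and switches on genes of glycolysis, angiogenesis and pH control. ZHX2, a transcription factor with zinc fingers and homeoboxes, is itself a known VHL substrate, and luminal breast cells such as T47D are governed by oestrogen and progesterone receptors together with GATA3 and FOXA1.

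Promoters of 2 kinds are shown by sequence. In the first kind the fold enrichment took a very different place in the 2 lists, and the second was called in 1 list only. Most regions that differed lay elsewhere, as given further below. The sequences below are RefSeq promoter windows of 300 bases in GRCh38.p14, from 250 bases before to 50 after the annotated start, read 5′ to 3′ on the strand of the gene. Capitals mark matches, on either strand, to 10 motifs: the HIF core ACGTG, the AP-1 motif TGANTCA, the CRE palindrome TGACGTCA, the GATA motif AGATAA, the forkhead motif TGTTTAC, the ZEB and SNAI type of E-box CACCTG, the GC box GGGCGG, the NRF1 motif GCGCATG, the NF-Y box CCAAT and the ZNF143 motif ACTACAA. A match is a description of letters and not a bound site, and where motifs overlap the capitals run together.

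Among the windows considered for printing that themselves overlap a shared region, the first 3 had the largest gain in rank with shZHX2 in hypoxia: DMPK, a protein kinase gene (chr19:45779570-45779869, minus strand), RAB5C, a small GTPase of early endosomes (chr17:42154940-42155239, minus strand), and STX19, a syntaxin (chr3:94028548-94028847, minus strand).
DMPK: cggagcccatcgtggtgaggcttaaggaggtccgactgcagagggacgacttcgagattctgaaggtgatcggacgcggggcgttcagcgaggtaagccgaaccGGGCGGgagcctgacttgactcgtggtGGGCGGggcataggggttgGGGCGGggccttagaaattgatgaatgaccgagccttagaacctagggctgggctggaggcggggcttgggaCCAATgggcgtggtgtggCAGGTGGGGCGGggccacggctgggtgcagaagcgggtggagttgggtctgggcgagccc
RAB5C: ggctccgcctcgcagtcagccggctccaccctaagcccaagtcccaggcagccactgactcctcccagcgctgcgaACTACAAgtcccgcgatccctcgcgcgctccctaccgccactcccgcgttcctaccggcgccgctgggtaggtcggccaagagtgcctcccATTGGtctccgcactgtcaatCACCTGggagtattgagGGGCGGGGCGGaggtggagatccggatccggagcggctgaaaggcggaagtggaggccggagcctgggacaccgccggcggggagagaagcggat
STX19: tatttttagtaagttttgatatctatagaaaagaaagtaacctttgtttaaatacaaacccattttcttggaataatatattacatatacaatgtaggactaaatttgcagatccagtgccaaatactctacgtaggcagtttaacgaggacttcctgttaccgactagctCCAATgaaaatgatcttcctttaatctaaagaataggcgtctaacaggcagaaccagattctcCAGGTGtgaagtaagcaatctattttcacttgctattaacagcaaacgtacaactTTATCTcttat

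The next 3 had the largest loss in rank among such windows: MEI4, a meiotic recombination gene (chr6:77650024-77650323, plus strand), LLCFC1, a gene of sperm-egg fusion (chr7:142939234-142939533, plus strand), and SMIM10L2A (chrX:135421694-135421993, plus strand).
MEI4: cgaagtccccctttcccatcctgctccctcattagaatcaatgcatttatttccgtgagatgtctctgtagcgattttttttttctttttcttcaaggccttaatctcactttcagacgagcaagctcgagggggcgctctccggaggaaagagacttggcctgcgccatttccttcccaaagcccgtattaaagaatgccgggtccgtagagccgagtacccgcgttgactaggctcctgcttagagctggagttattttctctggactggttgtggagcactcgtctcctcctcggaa
LLCFC1: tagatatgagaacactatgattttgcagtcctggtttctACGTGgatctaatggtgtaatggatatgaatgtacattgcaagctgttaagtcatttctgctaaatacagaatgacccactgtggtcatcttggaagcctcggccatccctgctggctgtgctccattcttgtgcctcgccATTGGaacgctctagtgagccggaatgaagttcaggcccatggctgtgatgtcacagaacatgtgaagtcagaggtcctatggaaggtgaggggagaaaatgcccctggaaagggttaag
SMIM10L2A: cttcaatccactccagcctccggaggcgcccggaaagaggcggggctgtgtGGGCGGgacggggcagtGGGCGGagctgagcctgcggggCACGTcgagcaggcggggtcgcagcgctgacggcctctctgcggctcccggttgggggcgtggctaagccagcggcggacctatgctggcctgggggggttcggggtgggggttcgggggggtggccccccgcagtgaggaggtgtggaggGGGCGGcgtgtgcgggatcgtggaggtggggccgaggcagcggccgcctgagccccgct

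The last is the promoter of CD68, a macrophage lysosomal protein (chr17:7579388-7579687, plus strand), which was called in normoxia and in neither hypoxia list.
CD68: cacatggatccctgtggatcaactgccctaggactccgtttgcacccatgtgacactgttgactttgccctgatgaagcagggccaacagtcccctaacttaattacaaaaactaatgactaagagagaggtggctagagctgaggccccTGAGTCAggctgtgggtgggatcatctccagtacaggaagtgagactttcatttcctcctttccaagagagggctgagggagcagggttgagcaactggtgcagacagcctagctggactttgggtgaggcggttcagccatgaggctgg

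GC content of these windows ranged widely, from 33.3% in STX19 and 47.3% in LLCFC1 to 75.3% in SMIM10L2A. Both the rises and the falls thus included a GC-rich and a GC-poor promoter. The HIF core was matched in LLCFC1 and SMIM10L2A, both of which lost rank, and in none of DMPK, RAB5C and STX19. It was present in 23.6% of all 15812 promoter windows. The MEI4 window held none of the 10 motifs. The CD68 window held 1 AP-1 match, a motif found in 5.65% of all windows.

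Many more regions were lost than gained. Of the normoxia regions, 31343 of 90885 (34.5%, 34.2 to 34.8) had no overlapping region, by at least 1 bp, with shZHX2 in hypoxia. Of the shZHX2 regions, 2750 of 62727 (4.38%, 4.23 to 4.55) had none in normoxia. When normoxia was cut to the 62727 regions of highest fold enrichment, 19.6% of it was not called with shZHX2. Of the shZHX2 list, 19.1% was not called in the cut list. Lists of equal length whose regions overlap mostly one to one must give nearly equal shares, so nothing is read from their likeness. Read numbers are unknown for every list, so sequencing depth and condition cannot be told apart for these counts.

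Unshared regions were mostly weak: 14.01% of the normoxia-only and 4.62% of the shZHX2-only regions lay above the median fold of their list. With normoxia regions split into deciles of fold enrichment, 67.0% of the lowest decile were not called with shZHX2, 71.3% of the next, 25.2% of decile 6 and 0.528% (48 of 9089) of the highest. The shZHX2 regions showed the same slope at a lower level, from 12.2% in their lowest decile to 0.0478% (3 of 6273) in their highest. Median fold enrichment was 3.20 for regions called in normoxia only and 5.07 for the normoxia regions that were shared, and the median widths were 331 and 666 bp.

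**Figure D1:**
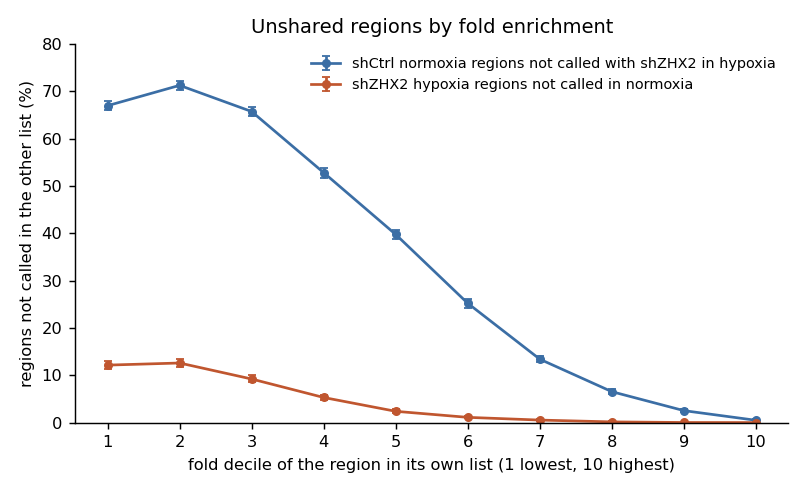
Share of regions with no overlapping region in the other list (y axis, percent) against the fold decile of the region in its own list (x axis, 1 lowest to 10 highest), with 95% Wilson intervals for counting error. Losses from normoxia fall from 71.3% in the second decile to 0.528% in the highest, and gains with shZHX2 stay at or below 12.6% throughout.

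About as many lost regions were already absent in hypoxia with shCtrl as were still called there. Of the 31343 normoxia-only regions, 15003 (47.9%, 47.3 to 48.4) were called in the shCtrl hypoxia list and 16340 were not. The ones still called there were the stronger ones, with a median fold in normoxia of 3.46 against 3.04, and 24.3% of them lay above the median fold of the normoxia list against 4.53%. Of the 2750 shZHX2-only regions, 747 (27.2%, 25.5 to 28.9) were also called in hypoxia with shCtrl, and the other 2003 were called with shZHX2 alone. Their median folds with shZHX2 were 3.42 and 3.36. Since each of these counts uses the shCtrl hypoxia list as well, its own length enters them.

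Losses and gains lay mostly away from gene ends. A region was placed at a gene end when it came within 1 kb of either limit of a protein-coding gene, 1 of which is the start. Of the normoxia-only regions 4.51% (4.28 to 4.74) lay at a gene end, against 22.6% of the shared normoxia regions. Weighting the shared regions to the fold deciles of the lost ones brought that figure to 15.9%, still above the lost regions. For shZHX2-only regions the share was 3.38% (2.77 to 4.13), against 22.3% of shared shZHX2 regions and 12.7% after the same weighting. With normoxia cut by fold to the length of the shZHX2 list, the gene-end share of normoxia-only regions was 3.30% and that of shZHX2-only regions 11.7%. The shZHX2-only regions then include those whose normoxia counterpart was cut away, so the share for gained regions depends on the cut.

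Most gene ends kept their call. Of 19974 protein-coding genes, 14858 had an end called in normoxia, 14484 in hypoxia with shCtrl and 14034 with shZHX2 in hypoxia. An end was called in normoxia only for 872 genes (4.37%) and with shZHX2 only for 48 (0.24%). Of the 872, 465 were still called in hypoxia with shCtrl. Of the 48, 16 were called there. For 85 of the 872 genes the normoxia region at that end still overlapped a shZHX2 region, which did not itself reach the 1 kb window, while for 787 it overlapped none. When normoxia was cut by fold to the length of the shZHX2 list, 335 genes had an end called in normoxia only and 986 with shZHX2 only. The cut can only take away normoxia ends. The 986 thus include genes whose normoxia end was called before the cut, and nothing is read from the change of order.

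The 5 strongest regions called in normoxia only were all still called in hypoxia with shCtrl. They lay nearest to C8orf89, BCL2 (an apoptosis inhibitor), FAM90A26, MYOD1 (the muscle determination factor) and MTPAP (the mitochondrial poly(A) polymerase). The region near BCL2 (chr18:63155166-63155861, 31820 bp from the nearer gene end) had a fold of 8.78 in normoxia, and the region near MYOD1 (chr11:17703889-17704400) a fold of 8.38. They stood at fold percentiles of 96.3 and 94.97 of the normoxia list. FAM90A26 belongs to a family of near-identical copies, so the assignment of its reads is uncertain.

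The 5 strongest shZHX2-only regions were likewise all called in hypoxia with shCtrl, so they were shared by both hypoxia lists and missing in normoxia. The strongest (chr4:55328092-55328351, fold 9.87) lay 17891 bp from an end of SRD5A3, a reductase of dolichol synthesis. The next lay near ST6GALNAC1, a sialyltransferase (fold 7.50, 1804 bp away), CEP72, a centrosomal protein (7.19), SPINK1, a trypsin inhibitor (7.05), and PRP4K, a splicing kinase (6.74). All 5 were narrow, between 260 and 465 bp.

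At the level of genes, 9902 of 19974 (49.6%) had at least 1 normoxia region within 50 kb that was not called with shZHX2, and 1467 (7.34%) had at least 1 shZHX2 region not called in normoxia. Each region was assigned to the gene with the nearest end. PGR, the progesterone receptor gene and a standard oestrogen receptor target, lost the most: 14 of its 18 normoxia regions. Regions of the same fold deciles lost 11.1 of 18 on average. In hypoxia with shCtrl 3 of the 14 were still called. What remained at PGR with shZHX2 were 4 regions, among them the start of the gene (chr11:101127438-101129982, fold 3.47 against 3.81 in normoxia and 3.38 in hypoxia with shCtrl) and a region 4.41 kb inside its other end, whose fold was 5.73 in normoxia, 6.07 in hypoxia with shCtrl and 7.18 with shZHX2. The lost PGR regions were weak, with folds between 2.03 and 3.57 in normoxia.

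After PGR came KCNN3, a calcium-activated potassium channel (12 of 19 regions), LINGO1 (12 of 22), GRM4, a metabotropic glutamate receptor (12 of 23), and ADGRB1, an adhesion receptor (12 of 24). TMEM132B lost 11 of 15, the scaffold gene SHANK2 11 of 22, TRPS1 11 of 23, ELFN2 10 of 12 and the orphan receptor gene ESRRB 10 of 15. For these 9 genes the fold deciles gave between 6.98 and 14.7 losses. KCNN3, LINGO1, GRM4, TMEM132B, ELFN2 and ESRRB lost more than their deciles gave, and ADGRB1, SHANK2 and TRPS1 lost fewer. All of these genes, and PGR, were picked for their number of lost regions, so an excess over the deciles is favoured by the choice. When regions were assigned within 20 kb in place of 50 kb, 3 of the 10 genes remained among the first 10.

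Gains were thin. CPT1A, the carnitine palmitoyltransferase that admits fatty acids to mitochondria for oxidation, had the most shZHX2-only regions, 4 of its 12, and had also lost 4 of 12 normoxia regions. The 4 gained regions had folds of 1.90 to 3.18 and none was called in hypoxia with shCtrl. However, 1 of them (chr11:68857595-68857820) lay within 500 bp of a lost region (chr11:68857185-68857416). The lead of CPT1A over the next genes thus rests on the rule of 1 bp overlap. The other 8 regions, its start included, were shared. Each of the remaining 9 genes had 3 such regions: LOC124903248, OSTN, STRBP, TOP2B, RNF145, ASTN2, EGFR, WWC1 and TRPS1. At EGFR, the epidermal growth factor receptor gene, 3 of 9 shZHX2 regions were gained, 7 of 13 normoxia regions were lost, and the start had folds of 6.29 in normoxia and 7.24 with shZHX2. RNF145, an E3 ligase of sterol metabolism, gained 3 and lost none. Of the 10 genes, 3 remained among the first 10 with assignment within 20 kb.

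**Figure D2:**
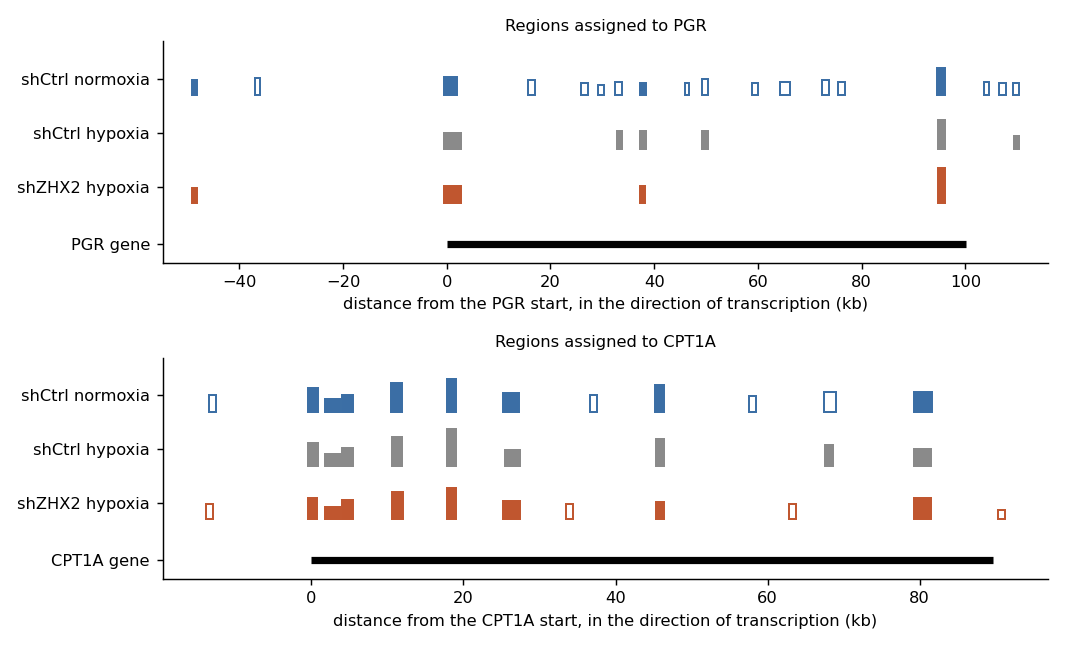
Regions assigned to PGR (top) and CPT1A (bottom) by distance from the start of the gene in kb, 1 row per list, with box height proportional to fold enrichment and box width drawn 0.7 kb wider than the region. Hollow boxes in the normoxia and shZHX2 rows are regions with no overlapping region in the other of these 2 lists: 14 of 18 at PGR in normoxia, and 4 of 12 in each list at CPT1A.

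At the other extreme, 11 of the 778 genes with at least 10 normoxia regions had lost none of them. These genes were picked after their counts were seen. They included EDN1, the endothelin gene (13 regions), ITPKB (13), PNPLA7 and the phosphatase gene PTPN1 (12 each), CCDC200 and SLCO4A1 (11 each), and ALDH3B2, STK24, TRH and TFAP2A, a transcription factor of mammary epithelium (10 each). At EDN1 the fold deciles gave 5.90 losses, against 0 observed, and 1 region was gained that hypoxia with shCtrl also had.

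The share of lost regions varied along the genome. By chromosome it lay between 27.1% on chromosome 19 and 38.8% on chromosome 10. Among 1233 windows of 1 Mb with at least 30 normoxia regions the median was 33.3%, and the central 90% lay between 19.6% and 51.2%. The lowest share, 6.25% (2 of 32 regions, against 9.04 from fold deciles), was at 60 Mb of chromosome 17, near HEATR6. A window at 32 Mb of chromosome 1 lost 6 of 60 (14.7 from deciles) and one at 85 Mb of chromosome 8 lost 5 of 48 (22.2 from deciles). In 2 windows of chromosome 19 with clusters of zinc finger genes 4 of 45 and 4 of 37 were lost, near the 5.15 and 4.38 that their deciles gave. High shares were found at CDH4 and TAF4 on chromosome 20 (32 of 45 regions, 71.1%) and at IRX2 on chromosome 5 (39 of 56, 69.6%). The highest, 28 of 32, lay in the centromeric part of chromosome 1, where repeats make the placing of reads uncertain. The windows named here were picked for their shares, so a gap from the deciles is favoured by the choice.

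Strength was compared over 58931 regions that overlapped one to one, 13238 of them at a gene end. Each region was ranked by fold within its own list among these same regions, so that 0 is the weakest and 100 the strongest, and the rank in normoxia was subtracted from that with shZHX2. The ranks had a Spearman correlation of 0.812, with 0.904 at gene ends and 0.782 elsewhere, given as a description over regions that share their 2 lists. Over the 56236 regions present in all 3 lists the correlation was 0.906 between normoxia and hypoxia with shCtrl, 0.866 between the 2 hypoxia lists and 0.804 between normoxia and shZHX2. The 2 lists that differ in both oxygen and hairpin were the least alike of the 3 pairs. They are also the longest and the shortest list and read numbers are unknown, so condition and depth cannot be told apart here.

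**Figure D3:**
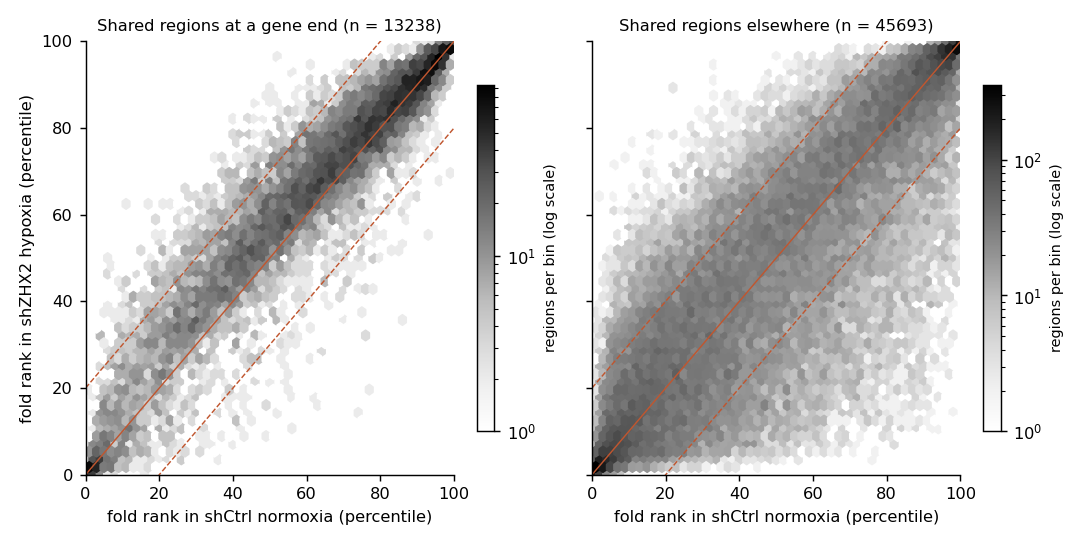
Fold rank with shZHX2 in hypoxia (y axis, percentile) against fold rank in normoxia (x axis, percentile) for 13238 shared regions at a gene end (left) and 45693 elsewhere (right), with grey level showing regions per bin on a log scale. The solid line marks equal rank and the dashed lines 20 points higher or lower; the cloud is narrower at gene ends, and elsewhere it reaches far below the lower line.

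Regions were also narrower with shZHX2. The median ratio of widths, shZHX2 over normoxia, was 0.887, and 80.1% of regions were narrower. The narrowing was smaller at gene ends (median 0.953) than elsewhere (0.855). A fold is given once for a whole region and so depends on where its limits were placed.

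Gene ends moved up slightly against other regions. The median rank difference was 3.52 points at gene ends and 0.34 elsewhere, 3.18 points apart. Ranked by −log10 p the difference was 0.47, and among pairs of which the narrower was at least 80% as wide as the wider it was 0.86, so this value depends on the measure and on width.

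Large differences in rank fell into 2 sets of unequal place. At least 20 points higher with shZHX2 were 5860 regions (9.94%): 7.79% of gene-end regions and 10.6% of the others. At least 20 points lower were 6960 (11.8%): 3.20% of gene-end regions and 14.3% of the others. Among such pairs of similar width the shares were 5.50% and 7.02%. The regions that ranked lower had narrowed strongly, with a median width ratio of 0.682, against 0.929 in those that ranked higher.

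The intermediate list can be set beside both. Over regions present in all 3 lists, the set that ranked higher had median ranks of 28.9 in normoxia, 39.98 in hypoxia with shCtrl and 59.5 with shZHX2. The intermediate list lay between the other lists in 4425 of 5505 of these regions (80.4%). The set that ranked lower had medians of 64.9, 49.8 and 26.5, with the intermediate list between in 4826 of 6843 (70.5%). Since the sets were chosen on the outer 2 lists, the size of the step between those lists was fixed by the choice, and a wide step leaves more room for a value between. Over all 56236 regions the intermediate list lay between in 46.2%, and over those within 20 points in 38.2%. Nothing is read from the 80.4% and 70.5%.

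**Figure D4:**
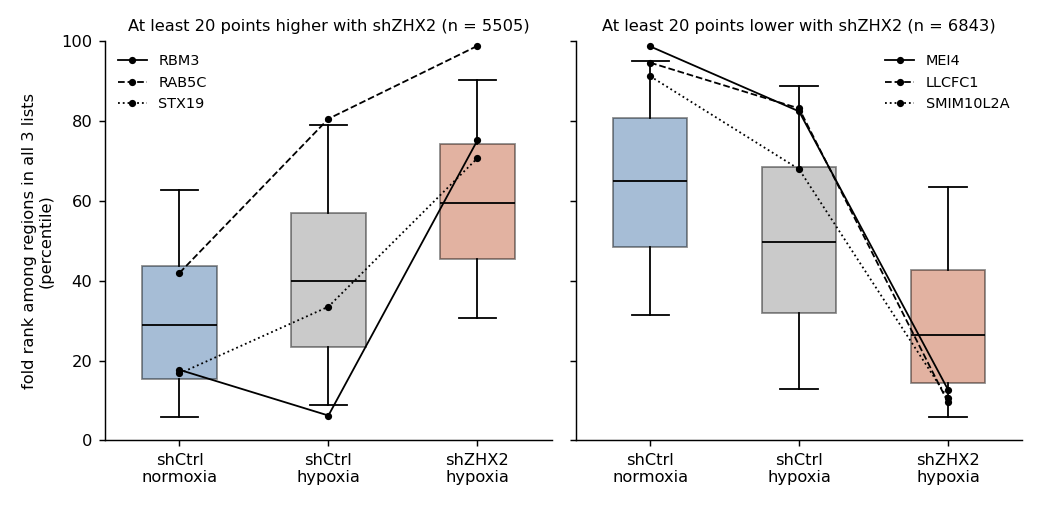
Fold rank (y axis, percentile among regions in all 3 lists) in the 3 lists for regions at least 20 points higher (left, n = 5505) or lower (right, n = 6843) with shZHX2 than in normoxia; boxes show the median and quartiles, whiskers the 5th and 95th percentiles, and lines the 3 gene-end regions of largest difference that all 3 lists hold. The median of shCtrl hypoxia (39.98 and 49.8) lies between the other medians in both panels, while RBM3 stays low in shCtrl hypoxia.

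Among gene ends the largest gain was at CBX2, a Polycomb subunit that reads histone methylation (chr17:79777576-79779815 in normoxia). Its fold was 3.46 in normoxia and 6.87 with shZHX2, a gain of 60.5 points, but the region narrowed from 2240 to 673 bp. RBM3, an RNA-binding protein known for its induction by cold and by low oxygen, stood at 3.63 in normoxia, 2.88 in hypoxia with shCtrl and 6.79 with shZHX2. It gained 56.0 points with widths of 503 and 398 bp, and here the gain was present with shZHX2 and not in hypoxia with shCtrl. RAB5C, whose promoter is printed above, went from 4.81 through 7.03 to 11.4 while its region narrowed from 1852 to 635 bp. Its gain was 54.4 points by fold and 6.75 points when ranked by −log10 p. STX19 went from 3.58 through 4.19 to 6.43, and its region widened from 297 to 572 bp.

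The rest of the 10 largest gene-end gains lay between 50.8 and 52.3 points. They were C1QA (a complement component), TBX1 (a developmental T-box factor), EPPK1 (epiplakin of the epithelial cytoskeleton), MEAK7 (a lysosomal signalling protein), TNNT3 (a skeletal muscle troponin) and SLITRK5 (a neuronal adhesion protein). At MEAK7 and TNNT3 hypoxia with shCtrl stayed at the normoxia level, with folds of 3.03 and 3.11 against 3.19 and 3.16, and the shZHX2 folds were 5.77 and 5.69. C1QA, TBX1, EPPK1 and SLITRK5 were already higher in hypoxia with shCtrl. The region narrowed from 1084 to 471 bp at TNNT3 and from 967 to 525 bp at EPPK1.

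The largest losses were steeper. At MEI4 (chr6:77650121-77650817) the fold was 10.6 in normoxia, 7.19 in hypoxia with shCtrl and 3.34 with shZHX2, a loss that took the region from rank 98.8 to 14.2. LLCFC1 passed from 8.93 through 7.27 to 3.19 and SMIM10L2A from 8.29 through 6.07 to 3.24. In these 3 the shZHX2 region was 0.455, 0.419 and 0.326 times as wide as in normoxia. With shZHX2 the narrowed region no longer reached the promoter windows of MEI4 and LLCFC1 printed above, while that of SMIM10L2A still overlapped its window.

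COL6A3, a collagen VI chain and the only member of the gene lists in this group, went from 8.28 through 7.21 to 3.54, and its region was 0.445 times as wide. LOC124905962, CFAP53 and UBXN10 (both genes of cilia), XKR4, GOLGA8K and GOLGA8J completed the 10, with differences between -70.5 and -64.2 points. GOLGA8K and GOLGA8J are near-identical copies, so reads may be split between them and their values are uncertain. In hypoxia with shCtrl the 10 folds lay between 4.43 (CFAP53) and 7.51 (UBXN10), above the shZHX2 value at each.

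Away from gene ends the largest losses took another course. At LHX8 and WDR87, hypoxia with shCtrl was already as low as shZHX2. The region 15568 bp from LHX8 (chr1:75112159-75112866), a homeobox gene, had folds of 10.3 in normoxia, 3.21 in hypoxia with shCtrl and 3.30 with shZHX2. The region nearest WDR87 had 9.26, 2.97 and 3.25, and that nearest RABL3 9.19, 3.82 and 3.25. The regions near NAPG and FAM151A, lay between, at 4.92 and 6.23 in hypoxia with shCtrl.

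The 5 largest gains away from gene ends were near ZMYND11, a histone reader, C5, a complement component, ATP6V1C1, a proton pump subunit, CIROZ and SMYD2, a lysine methyltransferase. The region 15306 bp from ZMYND11 (chr10:239125-239331) had folds of 3.16, 5.29 and 8.33 in the order normoxia, hypoxia with shCtrl, shZHX2, and widened from 207 to 349 bp. At CIROZ the folds were 2.95, 2.63 and 6.75 with nearly equal widths (489 and 472 bp), so the gain was seen with shZHX2 and not with shCtrl in hypoxia. At ATP6V1C1 they were 3.41, 3.57 and 7.83, with widths of 755 and 434 bp. The SMYD2 region narrowed from 1676 to 544 bp. Ranked by −log10 p, all 30 of these named regions kept their direction, and 27 still differed by at least 20 points. The 3 that did not were RAB5C (6.75 points), EPPK1 (15.0) and SMYD2 (18.2).

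Calls at the ends of hypoxia pathway genes were the same in both lists. Of 39 HIF target genes, 35 had an end called in normoxia and the same number with shZHX2, none in 1 list only. Over all genes the shares were 74.4% and 70.3%. SLC2A3, CA9, PFKFB4 and KDM3A had no called end in either, though the RefSeq promoter windows of PFKFB4 and KDM3A were called in all 3 lists. At least 1 normoxia-only region lay near 21 of the 39, beside 49.6% of all genes, and a shZHX2-only region near 3 (BNIP3, P4HA1 and KDM3A), beside 7.34%. Of the 33 with a shared region at an end, 6 ranked at least 20 points higher, beside 7.37% of all 12171 such genes, and 1 ranked at least 20 points lower, beside 2.97%. The median difference was 7.16 points, beside 3.50 over all genes. It was as high in other lists, such as housekeeping genes (7.24) and AP-1 and stress factors (8.05). In others it was lower, such as interferon genes (3.35) and chromatin architecture genes (2.43). The value is thus not particular to HIF targets.

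VEGFA, the angiogenic growth factor, had the largest difference among the HIF targets. The region over its start (chr6:43769483-43772175) had a fold of 2.84 in normoxia, 2.98 in hypoxia with shCtrl and 4.70 with shZHX2, a rank of 6.002 against 45.7, with widths of 2693 and 1705 bp. Of its 11 normoxia regions, 4 were lost and 3 of these were still called in hypoxia with shCtrl. The glycolytic enzyme genes ENO1 (4.81 to 7.04), HK2 (4.04 to 5.31) and GAPDH (4.26 to 5.26), the HIF prolyl hydroxylase gene EGLN1 (4.79 to 5.86) and the mTOR inhibitor gene DDIT4 (4.54 to 5.92) were the other 5. At GAPDH the width ratio was 0.960, whereas at HK2 it was 0.737 and at DDIT4 0.648.

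Other classical targets stayed in place. PDK1, which keeps pyruvate from the mitochondria, had a fold of 7.14 in normoxia and 7.21 with shZHX2. PGK1 had 14.4 and 14.5, and the glucose transporter gene SLC2A1 had 7.51 and 7.97. CA9, a carbonic anhydrase and a standard hypoxia marker, had no assigned region in any of the 3 lists.

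Among 11 oxygen sensing and ZHX genes, 10 had an end called in both lists, beside 70.0% of all genes. At least 1 region was lost at 10 of the 11, 23 of 62 regions in all. That is beside 49.6% of all genes and 30.3% of all assigned regions, and the fold deciles gave 22.3 losses. ZHX2 itself, the target of the hairpin, had 10 normoxia regions, of which 2 were lost, and its end region had folds of 3.12 and 3.39. A hairpin acts on RNA, so the openness of the gene is no check of the knockdown, and no RNA was measured here. VHL, the ubiquitin ligase subunit that recognises hydroxylated HIF, ranked 25.1 points higher (4.93 to 6.43). The HIF1A end differed by -1.32 points (6.56 to 6.53). EPAS1, which encodes HIF-2α, lost 5 of 10 regions, of which 3 were still called in hypoxia with shCtrl.

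The luminal and oestrogen receptor genes lost many weak regions. Of 30 genes, 29 had an end called in normoxia and 28 with shZHX2, beside 74.4% and 70.3% of all genes. At least 1 lost region lay near 26 of them, beside 49.6% of all genes. In total they lost 90 of 243 regions (37.0%), beside 30.3% of the regions assigned to any gene. Their fold deciles, taken over all normoxia regions, gave 123. Regions assigned to any gene also lost fewer than their deciles gave, 18975 against 20935.5. The luminal genes also held 9 gained regions, over 7 genes, 3 of them at TRPS1. Their fold deciles gave 11.5, and 7.34% of all genes had a gained region.

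TFF1, the trefoil factor and a textbook oestrogen target, was the member that lost its end call. Both of its normoxia regions were missing with shZHX2 and also in hypoxia with shCtrl. GATA3 lost 4 of 11 regions, FOXA1 2 of 5, GREB1 4 of 11 and the prolactin receptor gene PRLR 9 of 19. ESR1, the oestrogen receptor gene, lost 4 of 11 and gained 1; no region touched its gene ends in any list, while its RefSeq promoter window was called in all 3. Of the 24 luminal genes with a shared end region, 2 ranked at least 20 points higher, beside 7.37% of all such genes. They were the E-cadherin gene CDH1 (21.1 points, 4.59 to 5.64) and TRPS1 (25.5 points, 4.03 to 5.20). None of the 24 ranked 20 points lower, beside 2.97% of all such genes, and with so few genes nothing is read from this.

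Mesenchymal and invasion genes lost an end call at 5 of 32 members, the highest count of any list, beside 4.37% of all genes. By share the blood markers lost more, 3 of 14. The 5 were TWIST2 and ZEB2, transcription factors of epithelial-mesenchymal transition, COL6A3, PLAUR, the urokinase receptor gene, and TP63, the basal cell factor. A called end can be either limit of the gene. The RefSeq promoter windows of TWIST2, COL6A3, PLAUR and TP63 were called in no list. Only that of ZEB2 was called in normoxia, and it was called in neither hypoxia list. TWIST2, ZEB2 and COL6A3 had no called end in hypoxia with shCtrl either, whereas PLAUR and TP63 still had one. For COL6A3 and PLAUR the normoxia region still overlapped a shZHX2 region that no longer reached the window. PLAUR in fact ranked 5.50 points higher, with a fold of 7.29 against 8.23. None of the 21 mesenchymal genes with a shared end region ranked 20 points higher, beside 7.37% of all such genes. At least 20 points lower were 2 of them, beside 2.97%.

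The remaining lists changed little at their ends. All 25 cell cycle genes, 19 chromatin architecture genes and 22 housekeeping genes had an end called in both lists. So did 17 of 18 AP-1 and stress factors, 18 of 20 NF-kB targets and 13 of 14 interferon genes. Over all protein-coding genes the share called in both was 70.0%. None of the 18 chromatin architecture genes with a shared end region passed 20 points in either direction, beside 7.37% upward and 2.97% downward among all such genes. Interferon genes lost 5 of 34 regions and respiratory chain genes 10 of 53, against 7.27 and 12.8 from their fold deciles. Regions assigned to any gene likewise lost fewer than their deciles gave.

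In these lists single end regions ranked higher as well. They included GINS2, of the replicative helicase (4.08 to 6.11), CDT1, the licensing factor (3.59 to 4.77), CXCL8, the chemokine interleukin-8 (3.64 to 5.29), and ATF4, the integrated stress factor (4.01 to 4.97). Actin (ACTB, 2.78 to 4.31) and the elongation factor gene EEF1A1 (4.33 to 5.86) did so too. The ACTB region narrowed to 0.426 and that of GINS2 to 0.547 of its width, and that of CXCL8 widened to 1.70, whereas CDT1 (1.00) and ATF4 (0.968) kept theirs. Housekeeping genes were thus among those that ranked higher.

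Marker genes of other cell types were read the same way. In both lists 9 of 10 luminal markers had a called end, all but ESR1. Over all protein-coding genes the share with a called end was 74.4% in normoxia and 70.3% with shZHX2. Of 7 blood markers 5 were called in normoxia and 4 with shZHX2, of 6 basal and mesenchymal markers 3 and 2, of 4 endothelial and stromal markers 2 and 1, and of 4 liver and neuron markers 3 and 2. VIM, KRT5, KRT14, MS4A1, PECAM1, CDH5 and ALB were among those called in neither. An open promoter is not expression, and the part of other cells in these calls was not tested. In the longer lists of other cell types CD3D, CD4, CD68, PDGFRA and HNF4A had an end called in normoxia only. CD4 and CD68 were not called in hypoxia with shCtrl either, while the PDGFRA region still overlapped a narrower shZHX2 region. The RefSeq promoter windows of CD3D and HNF4A were called in no list, and that of PDGFRA in all 3. CSF1R was the 1 list member with an end called with shZHX2 only, and its promoter window was called in no list. Over all 14 lists, 255 of 290 members had an end called in normoxia and 244 with shZHX2.

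Promoters that ranked higher were richer in GC. Taking 1 window per gene, 10802 promoter windows overlapped a shared normoxia region. Among them, the 735 that ranked at least 20 points higher had a median GC content of 69.3%, the 224 that ranked at least 20 points lower 60.0%, and the 9843 between 66.3%. From the lowest to the highest decile of GC content, the share at least 20 points higher went from 7.42% to 11.8%, with a minimum of 4.103% in the fourth, and the share at least 20 points lower from 5.04% to 1.05%. The highest decile also started from a lower median rank in normoxia, 47.1 against 68.0 in the lowest decile. Across promoters the Spearman correlation of GC content and rank difference was 0.12, a weak relation.

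**Figure D5:**
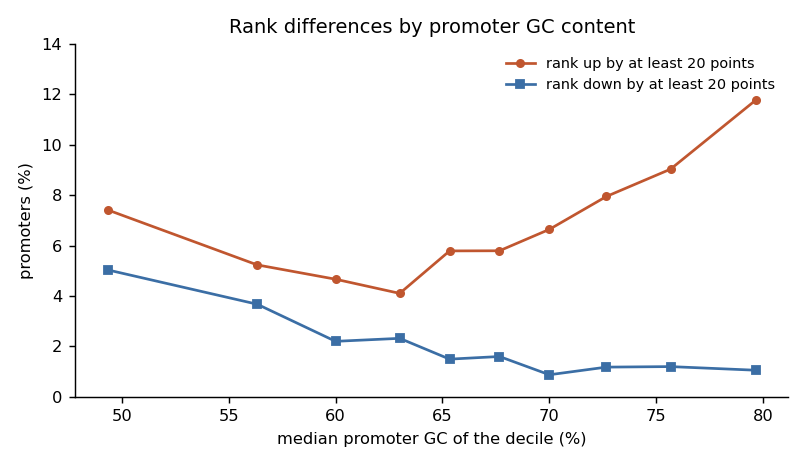
Share of promoter windows (y axis, percent) whose shared region ranked at least 20 points higher (circles) or lower (squares) with shZHX2, against the median GC content of each GC decile (x axis, percent); each point holds between 1001 and 1144 promoters. Higher ranks are most frequent in the most GC-rich decile (11.8%) and lower ranks in the least GC-rich (5.04%).

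Motif content was lowest in GC-rich motifs among the windows that ranked lower. The GC box GGGCGG was present in 75.5% of the windows that ranked higher and 54.0% of those that ranked lower, with 73.9% of those within 20 points and 59.8% over all windows. For the NRF1 motif GCGCATG the shares in that order were 8.03%, 2.23%, 7.72% and 5.80%, and for the CRE palindrome 4.76%, 0.893%, 3.19% and 2.56%. The windows that ranked higher were thus close to those within 20 points, and those that ranked lower stood apart from both. All windows include the 4554 called in neither list, 27.7% of which held the GC box. The HIF core ACGTG was found in 26.4% of windows that ranked higher, 21.9% of those that ranked lower and 26.6% of those within 20 points. The AP-1 motif showed 3.40% and 5.80%, on 25 and 13 windows, and CACCTG, the E-box of ZEB and SNAI factors, 18.4% and 18.3%.

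Promoter windows called in 1 list had another make-up. They include windows, such as that of MEI4, that a narrowed region no longer reached. The 441 windows called in normoxia only held the AP-1 motif in 8.16% and the GC box in 47.6%, with a median GC content of 60.7%. Over all windows these values were 5.65%, 59.8% and 63.3%. The 27 called with shZHX2 only had a median GC content of 48.7%, lower than any other called set, and in 3 of them AP-1 was matched. The windows called in neither list stood at 52.3%, with the AP-1 motif in 9.71% and the GC box in 27.7%. On all 3 values the normoxia-only windows lay between these and all windows. With 27 windows, the shares for shZHX2 only carry a wide counting error.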

How the data were processed

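ATAC-seq, 150-base paired ends per the labels' protocols, was run on 9 samples in 3 groups of 3, and 1 list of broad regions per group was analysed. The submitters' processing notes name FastQC, Bowtie2, SAMtools, MACS2 and hg38; versions, settings, any transposase shift and the step from 3 samples to 1 list are not given in the sources used here. The authors give, in the deposited lists, for each region a score, a fold enrichment (a ratio over background) and −log10 p and q values; every −log10 p is above 10. The depth behind the lists is unknown.

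Regions on 23 chromosomes were used (77, 68 and 52 others were left out), and regions sharing 1 bp counted as called in both lists. Genes and promoter windows came from RefSeq tables of GRCh38.p14, which shares coordinates with hg38; 15812 genes had a window and all 290 list members matched, 2 by an older symbol. Those tables give gene limits and no exons. Genes were named by count of unshared regions within 50 kb (10 each way), rank difference (10 and 10 at gene ends, 5 and 5 elsewhere), strongest unshared regions (5 and 5), list members with an end in 1 list, and 11 fixed genes; other list members are examples, and a few genes that this rule or the lists hold are not reported here. The members and lists were chosen with earlier results of these data known. Scripts used Python 3.11.15, pandas 2.3.3 and scipy 1.17.1 and were tested on simulated regions. No test across conditions was possible with 1 list per group; Wilson 95% intervals cover counting error.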

Additional observations from a re-analysis of the deposited data

How the results depend on the processing

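No paired analysis was possible because each group has 1 list and no values per sample, and for the same reason no replicate could be left out. With an overlap of 50% of each region, 41.1% of normoxia and 14.6% of shZHX2 regions were unshared, 45.1% and 45.9% of these were called in hypoxia with shCtrl, and 5.41% and 7.77% lay at a gene end. With lists cut to equal length by fold, the unshared shares were 19.6% and 19.1% (15.5% and 14.8% when cut by −log10 p, chosen after seeing the data), those called in hypoxia with shCtrl 53.6% and 29.6%, gene ends called in 1 list 335 and 986, and gene-end shares 3.30% and 11.7%. For the 50% of each list with the highest −log10 p, searched in the whole other list, 5.26% of normoxia and 0.179% of shZHX2 regions were unshared, 91.1% and 51.8% of these were called in hypoxia with shCtrl, 128 and 4 genes had an end called in 1 list, and 5.19% of lost regions lay at a gene end. A gene end of 500 bp gave gene-end shares of 2.93% and 2.25%. Ranked by −log10 p, the correlation was 0.88 and the gene-end difference 0.47 points; over pairs of which the narrower was at least 80% as wide as the wider (35915 of 58931, chosen after seeing the data) these were 0.89 and 0.86, and 5.50% and 7.02% of regions passed 20 points upward and downward. Assigned within 20 kb, 3 of 10 genes stayed among the first 10 in either list. The cause of these changes was not tested, except that shorter lists hold fewer regions by construction. The cut to equal length also removes normoxia regions that shZHX2 regions overlap, and those shZHX2 regions then count as shZHX2-only. Counting a region within 500 bp as called left both unshared shares inside their intervals (34.4% and 4.33%). The other 11 values recomputed stayed inside their intervals, within 1.5 times or, for the correlation and the width ratio, within 0.05.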
